A study of Homo sapiens with 6 samples.

Results

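The complement set described here holds 9 genes, chosen by name from the 28395 genes of the expression table with earlier results of these data known. They are the components C1R, C1S, C3 and C5, the soluble regulators CFI and SERPING1, and the membrane regulators CD46, CD55 and CD59. mRNA was sequenced from HCC827 cells, an established lung adenocarcinoma line whose EGFR carries an activating deletion, and every library is therefore of the same line and the same EGFR allele. The cells were given either the vehicle DMSO (3 libraries, DMSO1, DMSO2 and DMSO3) or 1 µM erlotinib, a small molecule that blocks the EGFR kinase (3 libraries, Erlo4, Erlo5 and Erlo6), in both cases for 24 h. Nothing in the labels says whether the libraries of a group came from separate cultures, so the p-values measure the spread between libraries, which may be technical. Between 20760204 and 24641819 reads fell on genes in each library. All values are signal, the reads of a gene divided by 1 size factor per library, and the signal of 1 read lay between 0.923 and 1.13.

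Complement is a cascade of plasma proteins that marks surfaces for uptake and can end in a pore in the target membrane. In the classical pathway the C1 complex carries the serine proteases C1r and C1s, and all pathways meet at C3, after which C5 opens the terminal steps. Soluble regulators such as factor I and C1 inhibitor, and the membrane proteins CD46, CD55 and CD59, restrain the cascade on host cells. The liver makes most of the plasma proteins, and epithelial cells, those of the lung included, can also express a number of them.

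After erlotinib, 6 of the 9 genes rose, none fell, C5 and CD46 did not pass the test, and SERPING1 had too few reads to be tested. The proteases C1R and C1S and the protease CFI had the largest log2 fold changes of the set, 3.15, 2.87 and 2.96. C3 rose by 2.15 on the same scale from a signal of 9.05 ± 4.23 (SD, n = 3), CD55 rose by 0.80 and CD59 by 0.22. The tests were two-sided limma tests on log2(signal + 1), fitted over the 14215 genes whose signal averaged at least 10 across the libraries and adjusted by the Benjamini-Hochberg method with a threshold of 0.05. Of all genes tested, 5012 (35.3%) were called higher and 5031 (35.4%) lower, against 6 higher and 0 lower of the 8 complement genes tested. Among the 8, C3 reached the minimum signal only through its erlotinib libraries. With at least 10 reads in every library C3 was not tested, and 5 of 7 were called higher, beside 4354 of 12859 genes. None of the 8 was lower at an unadjusted p under 0.05 either, and DESeq2 and edgeR also called 0 of them lower. In the same 6 genes every erlotinib library lay above every DMSO library, as it did in 5214 (36.7%) of all genes tested. The median log2 fold change was 1.48 in the 8 genes and 0.02 in all genes tested. Because the 9 genes were chosen with earlier results known, these shares and medians do not test whether complement genes differ from other genes. Scaling each library to its total count in place of the size factors moved the median of all genes to 0.20 and the calls to 6180 higher and 3951 lower, with 6 of the 8 complement genes still called higher. In a bulk sample, more cells expressing a gene and more RNA of it per cell cannot be told apart.

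**Figure D1:**
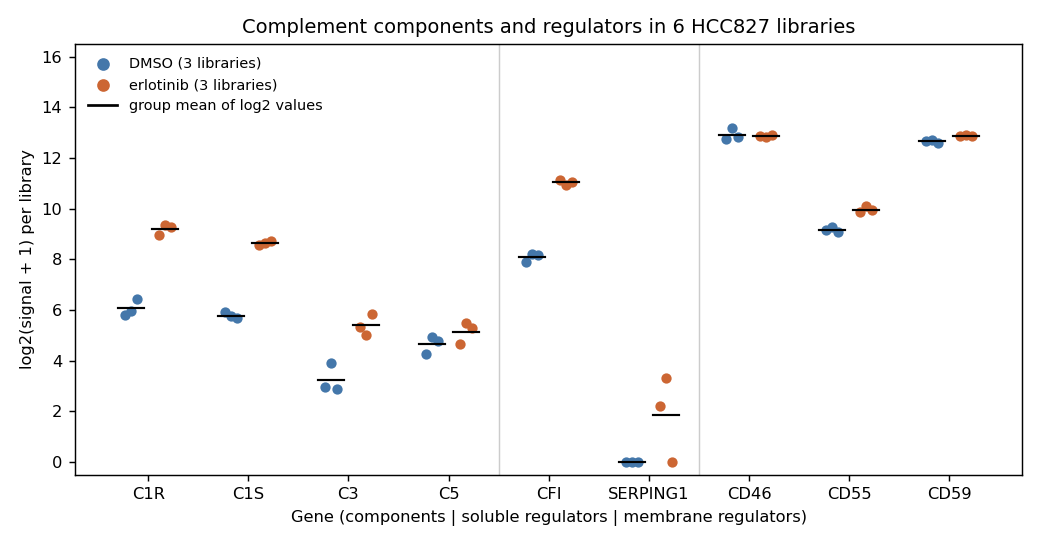
Signal of the 9 genes in each library, as log2(signal + 1) on the vertical axis, with DMSO libraries in blue, erlotinib libraries in orange and black bars at the group means of the log2 values. The points of C1R, C1S, C3, CFI, CD55 and CD59 do not overlap between the groups, and those of C5, CD46 and SERPING1 do.

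Promoter sequences were read from RefSeq for 6 of the 9 genes (C5, C1R, CFI, CD46, CD55 and CD59), in build GRCh38.p14. Each is the 250 bases before the outermost annotated start of the gene, and any other starts were not searched. Shown 5′ to 3′ on the strand of the gene are the promoters of C1R and CFI, which had the largest log2 fold changes among the 6, and of CD46, an abundant regulator whose change did not pass the test. They lie at chr12:7092446-7092695 on the minus strand, chr4:109802000-109802249 on the minus strand and chr1:207751788-207752037 on the plus strand. Capitals mark a match to 1 of the 4 motifs named after the sequences.
C1R: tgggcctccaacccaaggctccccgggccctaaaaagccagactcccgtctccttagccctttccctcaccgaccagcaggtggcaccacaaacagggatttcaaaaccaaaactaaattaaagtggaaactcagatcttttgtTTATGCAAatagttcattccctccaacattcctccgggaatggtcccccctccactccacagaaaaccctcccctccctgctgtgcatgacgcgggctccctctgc
CFI: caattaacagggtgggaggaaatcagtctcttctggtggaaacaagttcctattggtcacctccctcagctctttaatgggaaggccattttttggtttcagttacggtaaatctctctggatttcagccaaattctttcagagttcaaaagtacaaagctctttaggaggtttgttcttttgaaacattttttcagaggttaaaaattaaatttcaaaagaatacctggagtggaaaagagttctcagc
CD46: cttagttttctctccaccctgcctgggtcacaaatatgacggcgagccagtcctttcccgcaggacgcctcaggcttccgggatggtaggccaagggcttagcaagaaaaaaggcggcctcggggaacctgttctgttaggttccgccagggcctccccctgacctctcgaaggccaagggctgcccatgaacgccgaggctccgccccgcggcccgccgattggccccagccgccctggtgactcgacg

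The GC content of these promoters was 54% in C1R, 38% in CFI and 64.8% in CD46. Both strands were searched for the core of the interferon-stimulated response element (GAAA, any 2 bases, GAAA), a STAT site (TTCNNNGAA), a C/EBP site (TTGCNNAA) and an AP-1 site (TGANTCA), which are bound by factors known to act on complement genes. C1R held 1 match, to the C/EBP site on the opposite strand (TTATGCAA, 106 to 99 bases before the start), and CD59 held 1, to the STAT site (TTCTCAGAA, 128 to 120 bases before the start). Neither overlapped a match to another motif, and these letters were not in the windows of CFI, CD46, CD55 and C5. For comparison, 35116 RefSeq promoters of 27305 genes were cut to the same length, so some genes count more than once. Of these promoters, 3.02% held the interferon-stimulated core, 6.57% the STAT site, 9.05% the C/EBP site and 6.57% the AP-1 site. A match is a run of letters and was not tested for binding.

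C1R (Entrez 715, chr12:7080219-7092445) encodes the protease that activates itself in the C1 complex and then cleaves C1s. The signal of C1R was 54.5, 61.3 and 85.6 in the DMSO libraries and 502, 663 and 622 in the erlotinib libraries. DMSO3 was the highest of its group, and the lowest erlotinib library lay 416 above it. The mean was 67.1 ± 16.4 in DMSO and 596 ± 83.9 in erlotinib (SD, n = 3 each), which on the log2 scale is a difference of 3.15 (SE 0.17, adjusted p = 1.5e-12, limma). Of all genes tested, 1.67% had a higher log2 fold change.

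C1S (Entrez 716, chr12:7060718-7071032) encodes the protease that cleaves C4 and C2 once C1r has activated it. Its signal was 59.0, 52.9 and 50.3 under DMSO and 377, 404 and 422 under erlotinib. The libraries of each group lay close together and the groups were far apart. C1S went from 54.1 ± 4.45 to 401 ± 23.0, with a log2 fold change of 2.87 (SE 0.17, adjusted p = 2.7e-12, limma). Per kb of transcript, the ratio of the level of C1R to that of C1S lay between 0.995 and 1.83 in DMSO and between 1.44 and 1.77 in erlotinib, so the proportion between the partner proteases differed by less than the spread between the DMSO libraries. Their rise was not accompanied by reads on the recognition part of C1, since C1QA, C1QB and C1QC, whose products bind antibody, were listed at 0 in every library.

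C1R and C1S lie 9.19 kb apart on chromosome 12, and C1RL, which encodes a protease like C1r, lies 2.11 kb beyond C1R. The values around them were looked at because of this arrangement, and the neighbours outside the complement list were chosen after their values were seen. C1RL rose from 877 ± 67.5 to 3992 ± 183, a log2 fold change of 2.19 (SE 0.08, adjusted p = 1.3e-15, limma). CLSTN3, a calsyntenin gene, had a log2 fold change of 1.99 (SE 0.08), RBP5, which encodes a retinol-binding protein, 1.08 (SE 0.15) and the antisense RNA C1RL-AS1 0.79 (SE 0.12). On the other side of C1S, LPCAT3, a phospholipid acyltransferase gene, fell by 0.74 (SE 0.08) and EMG1, a ribosome biogenesis gene, fell by 1.72 (SE 0.09). PEX5, a gene for a peroxisomal import receptor, had a log2 fold change of 0.13 (SE 0.07, adjusted p = 0.105, limma) and passed the test in neither direction. Other than C1R, C1S and C1RL, 6 tested genes reach into the 100 kb on either side of C1R. Of these 6, 3 were higher, 2 lower and 1 neither, beside 35.3% higher and 35.4% lower of all genes tested. A split of 6 genes named after their values were seen was not tested against these shares. C1RL-AS1 overlaps both C1RL and RBP5, RBP5 overlaps CLSTN3 and EMG1 overlaps LPCAT3, and because the strand counted is not stated, reads of these overlaps cannot be told apart.

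**Figure D2:**
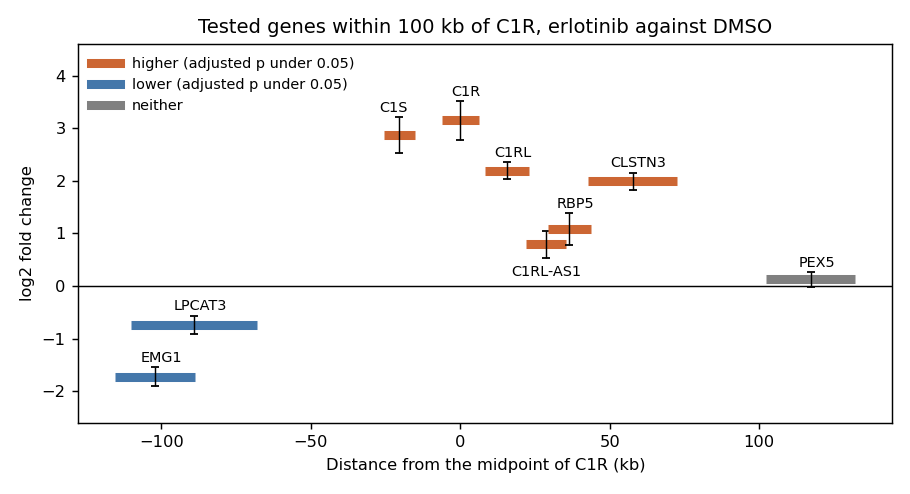
Tested genes within 100 kb of C1R, with the distance from the midpoint of C1R in kb on the horizontal axis and the log2 fold change of erlotinib against DMSO on the vertical axis. Thick bars span each gene, thin bars are 95% intervals, and C1S, C1R, C1RL and CLSTN3 lie between 1.99 and 3.15 while LPCAT3 and EMG1 lie below 0.

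C3 (Entrez 718, chr19:6677704-6720650) encodes the protein at which the pathways meet. Its signal was 6.81, 13.9 and 6.42 in DMSO and 39.7, 31.7 and 56.2 in erlotinib, which came from 6, 15 and 6 reads and from 43, 32 and 60. The groups did not overlap, although every library held few reads of this gene. Its DMSO mean was under the minimum, so C3 was tested only because of its erlotinib libraries. C3 went from 9.05 ± 4.23 to 42.5 ± 12.5, a log2 fold change of 2.15 with a 95% interval of 1.22 to 3.09 (SE 0.45, adjusted p = 2.4e-04, limma). With a pseudocount of 10 in place of 1 the log2 fold change was 1.46, since low genes are the most affected by the pseudocount. The nearest tested gene, GPR108, 9.26 kb away, had a log2 fold change of 1.12 (SE 0.12, adjusted p = 5.0e-08, limma). Farther out on that side TRIP10, 19.0 kb away, fell by 0.29 (SE 0.09, adjusted p = 0.0054, limma), and on the other side CD70, 86.6 kb away, did not pass the test (log2 fold change -0.27, adjusted p = 0.326, limma) and TNFSF9, 142 kb away, fell by 0.33 (SE 0.12, adjusted p = 0.0137, limma).

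C5 (Entrez 727, chr9:120952335-121074865) encodes the component whose cleavage starts the assembly of the membrane attack complex. The DMSO libraries gave a signal of 18.2, 29.7 and 26.8, and the erlotinib libraries gave 24.0, 44.5 and 38.4. Erlo4 lay below DMSO2 and DMSO3, so the groups overlapped. The means were 24.9 ± 6.01 and 35.6 ± 10.5, with a log2 fold change of 0.49 (95% interval -0.28 to 1.26, adjusted p = 0.246, limma). It was 0.28 without DMSO1 and 0.74 without Erlo4, and C5 passed the test in neither case. Which changes within the 95% interval could be detected at 73 reads over the DMSO libraries and 112 over the erlotinib libraries was not tested. C5 starts 0.09 kb from the start of CNTRL, a centriole gene on the opposite strand, which fell by 0.39 (SE 0.10, adjusted p = 0.0021, limma).

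Among the soluble regulators, CFI (Entrez 3426, chr4:109730982-109801999) encodes factor I, the protease that cleaves C3b and C4b in the presence of a cofactor. Its signal was 239, 293 and 285 in the DMSO libraries and 2254, 1983 and 2118 in the erlotinib libraries. Each group was tight, and the lowest erlotinib library lay 1689 above the highest DMSO library. CFI moved from 273 ± 29.0 to 2119 ± 136, a fold change of 7.77 on the log2(signal + 1) scale (log2 fold change 2.96, SE 0.10, adjusted p = 5.7e-16, limma). Its neighbour PLA2G12A, a phospholipase gene 0.912 kb away, fell by 0.26 (SE 0.09, adjusted p = 0.0137, limma), and GAR1 on the other side, a gene for a small nucleolar ribonucleoprotein, fell by 0.95 (SE 0.10). Of its neighbours CASP6, a caspase gene 21.2 kb away, rose by 0.73 (SE 0.08), and ELOVL6, a fatty acid elongase gene 244 kb away, fell by 2.36 (SE 0.08, adjusted p = 5.5e-16, limma).

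SERPING1 (Entrez 710, chr11:57597685-57614848) encodes C1 inhibitor, the serpin that inactivates C1r and C1s. No DMSO library held a read of it (0 of 3), and Erlo4, Erlo5 and Erlo6 held 4, 9 and 0, which is a signal of 3.69, 8.91 and 0. Erlo6 was thus at the level of the DMSO libraries. A count of 0 allows up to 3 reads in a library for counting error, a signal of 2.77 to 3.40, and the mean over all libraries of 2.10 was under the minimum for the test. No fold change is given for it. Without the minimum it was called higher (adjusted p = 0.048, limma over 19595 genes), on the reads of 2 libraries.

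Among the membrane regulators, CD46 (Entrez 4179, chr1:207752038-207795516) encodes a cofactor with which factor I cleaves C3b and C4b. The signal of CD46 was 6864, 9259.9 and 7276 in DMSO and 7502, 7322 and 7642 in erlotinib. DMSO2 lay above all other libraries, and the erlotinib libraries fell inside the range of the DMSO libraries. The means were 7800 ± 1281 and 7488 ± 161, with a log2 fold change of -0.05 (95% interval -0.22 to 0.13, adjusted p = 0.632, limma). Its sign was not stable, since the log2 fold change was 0.083 without DMSO2 (adjusted p = 0.139) and 0.13 with libraries scaled to their total count (adjusted p = 0.184).

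CD55 (Entrez 1604, chr1:207321678-207360966) encodes decay-accelerating factor, which takes the C3 and C5 convertases apart. DMSO libraries had a signal of 576, 613 and 534 and erlotinib libraries 936, 1093 and 976. All erlotinib libraries were above all DMSO libraries, by at least 323. The means were 574 ± 39.5 and 1002 ± 81.6, a fold change of 1.74 on the log2(signal + 1) scale (log2 fold change 0.80, SE 0.10, adjusted p = 2.3e-07, limma). CD55 and CD46 belong to the same gene cluster on chromosome 1, 391 kb apart, and the log2 fold change of CD55 was 0.80 beside -0.05 in CD46. In every erlotinib library the ratio of CD55 to CD46 per kb of transcript, 0.160 to 0.191, was above that in every DMSO library, 0.0848 to 0.108.

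CD59 (Entrez 966, chr11:33703010-33736479) encodes protectin, which blocks the last step of the membrane attack complex. Its signal was 6601, 6695 and 6141 in DMSO and 7410.2, 7736 and 7457 in erlotinib. The groups did not overlap, with DMSO3 the lowest of all libraries. The means were 6479 ± 296 and 7534 ± 176, a fold change of 1.16 on the log2(signal + 1) scale (log2 fold change 0.22, SE 0.06, 95% interval 0.09 to 0.35, adjusted p = 0.0041, limma). With libraries scaled to their total count, the log2 fold change of CD59 was 0.40 (adjusted p = 8.2e-06, limma). Of all genes tested, 40.9% had a higher log2 fold change than CD59, and 5.00% had one higher than C3. C11orf91 overlaps the end of CD59 and had a mean signal of 10.7, and how reads in the overlap were assigned is not given in the sources used here.

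Levels can be set beside each other between genes only per length, and are given here as signal per kb of the MANE Select transcript. Reads over exon junctions can be lost with the aligner used, and how this affected the order of the genes was not tested. In DMSO the order from high to low was CD46 (2349 ± 386), CD59 (857 ± 39.2), CD55 (222 ± 15.2), CFI (138 ± 14.7), C1R (27.0 ± 6.59), C1S (20.2 ± 1.66), C5 (4.55 ± 1.10) and C3 (1.73 ± 0.81), with SERPING1 at 0 reads. C1R and C1S did not differ beyond their spread in this order. In erlotinib CD46 (2256 ± 48.4) still had the highest mean, followed by CFI (1071 ± 68.6), CD59 (996 ± 23.3), CD55 (387 ± 31.5), C1R (239.5 ± 33.7), C1S (149 ± 8.57), C3 (8.13 ± 2.39), C5 (6.52 ± 1.93) and, last, SERPING1. CFI thus moved from below CD55 to the level of CD59, from which its libraries did not separate, and the libraries of C3 and C5 overlapped as well.

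**Figure D3:**
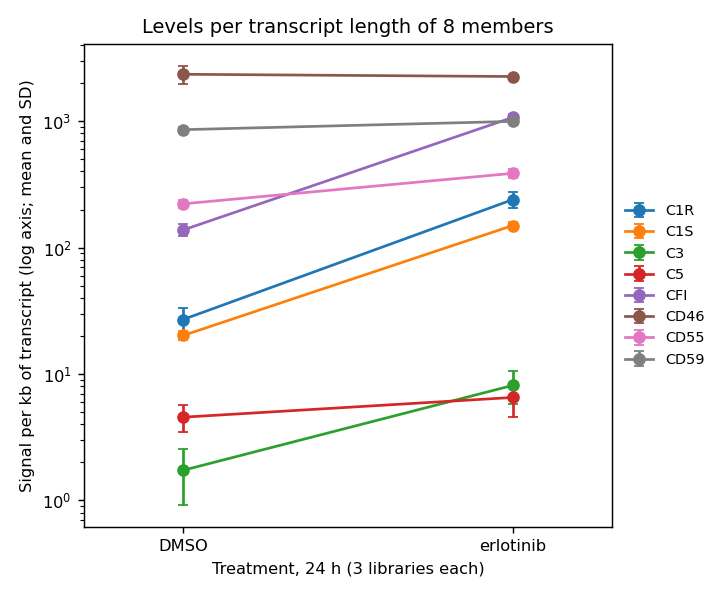
Level of 8 of the 9 genes in DMSO and erlotinib as signal per kb of transcript on a log axis, with the mean and SD of 3 libraries. The line of CFI crosses that of CD55 and reaches that of CD59, C1R and C1S run nearly in parallel, and CD46 and CD59 are almost flat on this axis.

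The other complement genes were taken from a list of 57 genes that includes the 9. It was also written with earlier results of these data known, so its shares are not a test of complement genes. Of these 57, 18 reached the minimum for the test, of which 13 rose, 2 fell and 3 did not pass the test, against 35.3% higher and 35.4% lower of all genes tested. The median log2 fold change of the 18 was 1.48. Of the 18, C3, CFHR3 and C8G reached the minimum only through their erlotinib libraries and SUSD4 only through its DMSO libraries. With at least 10 reads in every library, 9 of 12 were called higher and 0 lower, beside 4354 and 4925 of 12859 genes. Among the 10 tested genes outside the set of 9, 7 rose (among them C1RL, CFHR3, CLU, C8G, C5AR1 and ITGB2), SUSD4 and CR2 fell, and the lectin pathway protease gene MASP2 did not pass the test, with a log2 fold change of 0.39 (95% interval -0.50 to 1.28, adjusted p = 0.422, limma). The log2 fold change of MASP2 was 0.10 without Erlo6 and 0.79 without DMSO3, and it passed the test in neither case. MASP2 overlaps TARDBP, which had a mean signal of 6187, so its reads in the overlap are uncertain.

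**Figure D4:**
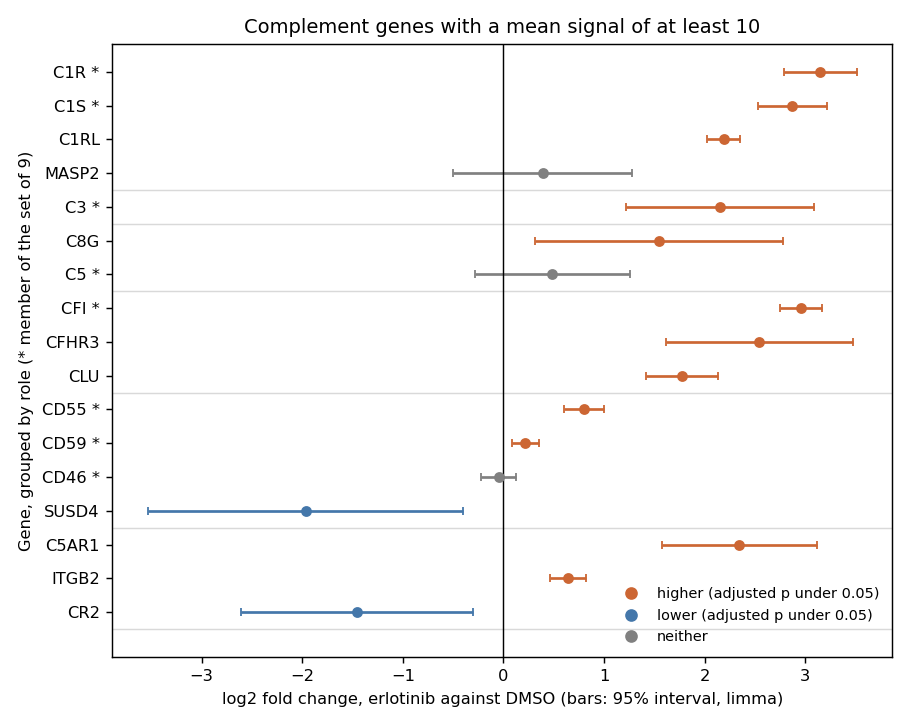
Log2 fold change of erlotinib against DMSO for 17 of the 18 complement genes tested, grouped by role, with 95% intervals from limma, and with an asterisk at the genes of the set of 9. The 12 genes shown that were called higher are in orange, SUSD4 and CR2, called lower, in blue, and C5, CD46 and MASP2 in grey.

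All 4 soluble regulators tested rose, of 14 listed, beside 35.3% of all genes tested. Beside CFI these included CLU and CFHR3, and CFHR3 reached the minimum for the test only through its erlotinib libraries. CLU, which encodes clusterin, a chaperone that also binds the terminal complex, went from 100.1 ± 22.9 to 340.4 ± 26.9 (log2 fold change 1.78, SE 0.17, adjusted p = 8.7e-09, limma). CFHR3 went from 6.53 ± 1.07 to 43.1 ± 8.59 (log2 fold change 2.54, SE 0.45), and with a pseudocount of 10 its log2 fold change was 1.67. CFHR3 belongs to a family of genes of similar sequence, so the division of reads among them is uncertain.

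Among the receptors, C5AR1, which encodes the receptor of C5a, rose from 12.8 ± 5.08 to 66.8 ± 12.1 (log2 fold change 2.34, SE 0.37, adjusted p = 9.6e-06, limma). Its DMSO libraries held only 8, 20 and 10 reads, and with a pseudocount of 10 the log2 fold change of C5AR1 was 1.76. ITGB2, the beta chain of the receptors for fragments of C3, rose from 825 ± 56.5 to 1284 ± 59.4 (log2 fold change 0.64, SE 0.09, adjusted p = 1.2e-06, limma), while its alpha chain partners ITGAM and ITGAX had mean signals of 13.1 and 4.77 even in erlotinib. ITGB2 overlaps the antisense RNA ITGB2-AS1, which had a mean signal of 163.

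The calls of 3 low genes, C8G, SUSD4 and CR2, were each lost when certain single libraries were left out. C8G, a chain of the terminal component C8, had 8.28 ± 5.43 in DMSO and 21.9 ± 3.38 in erlotinib (log2 fold change 1.54, SE 0.59, adjusted p = 0.0246, limma), and the limma adjusted p was 0.109 without DMSO3, 0.0509 without Erlo4, 0.0841 without Erlo5 and 0.0574 without Erlo6. The log2 fold change of C8G was 0.89 without DMSO3 and stayed at 1.62, 1.43 and 1.58 without Erlo4, Erlo5 and Erlo6. SUSD4, a membrane regulator of the convertases, fell by 1.97 (SE 0.75, adjusted p = 0.0248, limma) from 17.1 ± 12.2 to 3.43 ± 2.32. Its limma adjusted p was 0.143 without DMSO2, 0.0559 without DMSO3 and 0.0861 without Erlo5, with log2 fold changes of -1.45, -1.99 and -1.47. CR2, the complement receptor that lies between CD55 and CD46, fell by 1.46 (SE 0.55, adjusted p = 0.0239, limma) from 28.4 ± 4.29 to 12.1 ± 8.12. For CR2 the limma adjusted p was 0.084 without DMSO3 and 0.168 without Erlo6, with log2 fold changes of -1.34 and -0.72. With a pseudocount of 10 the log2 fold change was 0.85 for C8G, -0.93 for SUSD4 and -0.87 for CR2, and all 3 calls stood.

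The remaining 39 of the 57 genes were below the minimum, and 26 of them were listed at 0 in every library. These included the terminal component genes C6, C7, C8A, C8B and C9 and the recognition genes MBL2, FCN1 and FCN2. For C2, C4A, C4B, CFB and CFD, also listed at 0, a copy of the transcript was found on an alternate contig of the genome, and a read that maps to more than 1 place is not counted as unique. Which alternate contigs were in the genome the authors used is not given in the sources used here, so the part of these copies in the zeros was not tested. In the stretch chr6:31528962-32041644, which holds C2, CFB, C4A and C4B, 45 of 46 protein-coding genes were listed at 0 in every library, among them BAG6, DDX39B and CSNK2B, which nearly all cells use. All 44 of its genes with a MANE transcript had such a copy. Beside zeros in genes that nearly all cells use, nothing about the expression of these 4 complement genes can be read from the table.

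Of 10 genes of transcription factors known to act on complement genes, 8 rose, NFKB1 fell and CEBPB did not pass the test, beside 35.3% higher and 35.4% lower of all genes tested. The median log2 fold change of the 10 was 0.86, against 0.02 in all genes tested. The list of these factors was written with earlier results of these data known, and its shares were not tested against those of all genes. CEBPA rose by 2.06 (SE 0.28), STAT2 by 1.85 (SE 0.07), CEBPD by 1.78 (SE 0.08) and IRF9 by 1.47 (SE 0.10). STAT2 and IRF9 encode partners in the complex that interferon activates, and CEBPA and CEBPD encode factors that bind C/EBP sites. IRF1 rose by 0.85 (SE 0.08), STAT3 by 0.68 (SE 0.07) and RELA by 0.20 (SE 0.07, adjusted p = 0.0192, limma). The call of RELA was lost without DMSO3, Erlo4 or Erlo6, with limma adjusted p of 0.0507, 0.0569 and 0.0635, while its log2 fold change was 0.20, 0.21 and 0.20. NFKB1 fell by 0.55 (SE 0.08), and CEBPB had a log2 fold change of 0.13 (adjusted p = 0.155, limma), which became 0.31 (adjusted p = 0.0018) with libraries scaled to their total count.

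Markers of epithelial cells and of other cell types were measured beside these genes. The epithelial markers summed to a signal of 287233, 255086 and 277364 in the DMSO libraries and of 188887, 193214 and 194592 in the erlotinib libraries, which all lay lower. Of these markers, 1 of 7 rose (MUC1, by 2.82), 4 fell (KRT7, the most abundant, KRT8, KRT18 and KRT19) and 2 did not pass the test (EPCAM and CDH1). Beside these counts, 35.3% of all genes tested were higher and 35.4% lower. The hepatocyte markers summed to 211, 172 and 137 in DMSO and to 1085, 1169 and 1078 in erlotinib, nearly all of it from FGB, a fibrinogen gene, which rose by 2.69 (SE 0.13). The defining hepatocyte genes ALB, TTR and AHSG had mean signals of at most 1.54 in either group, and APOA1 and APOB were listed at 0. The 7 macrophage and monocyte markers summed to 2902, 2919 and 3288 in DMSO and to 3316, 3649 and 3563 in erlotinib, mostly from CD68, a lysosomal gene that many cell types express and that rose by 0.23 (SE 0.07). CSF1R, the other marker of this list that was tested, had 127 ± 9.01 in DMSO and 94.3 ± 16.1 in erlotinib, with every erlotinib library below every DMSO library, and did not pass the test (log2 fold change -0.43, adjusted p = 0.055, limma). The pan-leukocyte gene PTPRC had a mean signal of 1.78 and 4.75, and CD163 of 1.86 and 1.56. CD14 had mean signals of 6.60 and 11.8 and LYZ of 1.02 and 2.53, both below the minimum over all libraries. AIF1 was listed at 0 and has a copy on an alternate contig. The fibroblast markers summed to 73.7, 75.2 and 109 in DMSO and to 260.2, 223 and 215 in erlotinib. Of these, COL1A1, the most abundant, rose by 1.47 (SE 0.19) while its partner gene COL1A2 had mean signals of 0.997 and 0. LUM, below the minimum, had 4.14 ± 2.11 in DMSO and 12.6 ± 5.30 in erlotinib, with no overlap between the groups. COL3A1, DCN and PDGFRB had mean signals of at most 2.18 in either group. The 4 endothelial markers summed to 34.0, 15.8 and 20.3 in DMSO and to 58.1, 46.5 and 45.9 in erlotinib. Among them VWF, which reached the minimum only through its erlotinib libraries, rose by 2.74 (SE 0.64). PECAM1 did not pass the test, and CDH5 and KDR were below the minimum. The part of these genes in the rise of the complement genes was not tested.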

How the data were processed

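Paired-end reads had been aligned by the authors to GRCh38 (Bowtie2 2.3.4), those with a unique position assigned to genes (featureCounts 1.6.3) and the groups compared (DESeq2 1.18.1). The deposited signal values are named as raw counts but are whole reads divided by 1 size factor per library (0.882 to 1.08), since 100% of values in each library were whole multiples of its step within 0.01 reads. The division and the strand counted are not given in the sources used here. Since this aligner leaves reads unsplit at introns, reads over exon junctions can be lost. Replicates differed by more than sampling noise (between 4.13 and 24.3 in chi-square per degree of freedom), no column per sample was left out (0 unused), and 475 genes without a symbol were kept by Entrez identifier. Intervals from 0 reads cover counting error only.

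All 6 libraries were compared, 3 against 3, with limma (trend) on log2(signal + 1) over genes whose signal averaged at least 10, two-sided, with Benjamini-Hochberg adjustment over all genes tested. Named genes were the 9 genes, the other complement and transcription factor genes that passed this minimum, and the defining or most abundant markers of epithelial and other cell types. The neighbours on the chromosome, the genes at 0 in the stretch of chromosome 6 and the genes below the minimum were named after their values were seen. The 9 genes and all lists, written from general knowledge, were chosen with earlier results of these data known. Alternatives were DESeq2 and edgeR with TMM factors on recovered reads, scaling to the total count, pseudocounts of 0.1 and 10, no filter, at least 10 reads in every library, a threshold of 0.01 for the adjusted p-value, and each library left out. Some single genes are not reported here, though they stay in the counts of lists. The limma, edgeR and DESeq2 steps were tested on simulated data. Positions and promoters came from RefSeq (GRCh38.p14), transcript lengths from MANE Select in GENCODE, and copies from alignment of transcripts to 261 alternate contigs with minimap2 2.31-r1302 (at least 90% aligned, 97% identity). Fits used limma 3.58.1, DESeq2 1.42.0 and edgeR 4.0.16 in R 4.3.3, and figures were drawn with matplotlib 3.10.9 in Python 3.11.15.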

Additional observations from a re-analysis of the deposited data

How the results depend on the processing

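Of the 8 complement genes tested, 7 kept their direction and their call under every alternative run (up to 13 each), the exception being CD46. The log2 fold change of CD46 was 0.13 with libraries scaled to their total count and between -0.13 and 0.083 when a library was left out, above 0 only without DMSO2. The number of the 9 genes called higher was 7 without a filter, which added SERPING1, 5 with at least 10 reads in every library, where C3 was not tested, and 6 otherwise, and none was called lower. Of the wider list of 57, the number called lower was 1 with libraries scaled to their total count, where SUSD4 fell below the minimum, 0 with at least 10 reads in every library, where neither SUSD4 nor CR2 was tested, 0 at an adjusted p under 0.01, and between 0 and 2 when a library was left out. Low read counts in DMSO, in erlotinib or in both limit what can be read from C3, C5, SERPING1, MASP2, C8G, CFHR3, SUSD4, CR2 and C5AR1. No paired analysis was possible because the erlotinib columns carry the numbers 4 to 6, which the sample titles do not use.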
